A study of Mus musculus with 11 samples.

Results

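Precursor exhausted CD8+ T cells keep a stem-like state through a set of transcription factors, and 10 genes of such factors are described here across 11 libraries of these cells. The genes are Tcf7, Lef1, Bach2, Id3, Myb, Satb1, Bcl6, Ets1, Runx1 and Ikzf1. They were chosen by name from the 32469 gene symbols of the count table, and every one of them was found there. The cells came from Lewis lung carcinoma (LLC) tumors, grown from a mouse lung carcinoma cell line under the skin of both flanks of wild-type female C57BL/6 mice, 8 weeks old when purchased. In the anti-LAG-3 group, 6 mice received 200 µg of the LAG-3 blocking antibody C9B7W into the peritoneum on day 14 and again on day 16. The untreated group held 5 mice, for which no control antibody is given, and a library stands for a mouse in both groups. The sort kept CD8+PD-1+Ly108+TIM-3-CD62L- cells, so that both groups share this gate and no other T cell subset is at hand for comparison. Tumors of this experiment were taken on days 14 and 18 per the study's methods and on days 14 and 21 per the deposited description, which does not tie a library to a day. Elsewhere the paper places the tumors behind these libraries on day 18 in both groups. In bulk libraries, fewer cells that express a gene and less RNA per cell cannot be told apart.

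TCF-1, the product of Tcf7, and LEF-1 are related HMG box proteins that bind the same DNA motif and recruit TLE corepressors or β-catenin. In chronic infection and tumors, T cells with TCF-1 renew themselves and give rise to the cells that express TIM-3, which lose it. c-Myb, BACH2, BCL-6 and ID3 are known to hold T cells back from terminal differentiation, SATB1 organizes chromatin, and ETS1, RUNX1 and Ikaros (Ikzf1) are lineage factors that most T cells express.

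Since TCF-1 and LEF-1 are so alike, whether reads can tell their genes apart bears on every value given for them. The coding stretch of 60 bases in which the reference transcripts of both genes are most alike is shown for this reason, with capitals at the 9 bases that differ. It covers bases 604 to 663 of the 909-base coding sequence of a Tcf7 transcript and bases 931 to 990 of the 1191-base coding sequence of a Lef1 transcript, and 85.0% of its bases are identical.
Tcf7: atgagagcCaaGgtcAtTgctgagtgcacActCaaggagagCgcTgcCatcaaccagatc
Lef1: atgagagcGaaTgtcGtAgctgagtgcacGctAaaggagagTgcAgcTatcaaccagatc
The longest run of identical bases within this stretch was 12, and the longest that these coding sequences share anywhere was 17. No 50-base stretch of a Tcf7 transcript occurs in a transcript of another gene, and the same held for Id3, Bcl6, Ets1 and Ikzf1. The share was 13.7% for Lef1, the highest of the 10 genes, with Gm43352 on the opposite strand among the genes that share it, then 5.19% for Bach2 and 4.1% for Myb. The count of Lef1 is therefore the least certain in this respect. Where overlapping genes on the opposite strand had a row of their own, their counts were small beside those of the factor, such as 9 counts for A630014C17Rik against 1054 for Tcf7. On the same strand, Bach2it1, a transcript within Bach2, had 96 counts beside the 334 of Bach2, and how reads were divided between them is not given in the sources used here.

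Total counts ranged from 313524 to 1901374 per library, with medians of 566144 in untreated and 648676 in anti-LAG-3 mice. Levels are given as CPM, that is, counts scaled to the same number of reads on the 6949 genes that passed the filter on low counts, after TMM normalization. Errors of means are standard deviations (SD) over 5 untreated and 6 anti-LAG-3 mice unless another number is given. The p-values cover only counting error and the spread between these mice. A count of 3 corresponds to 1.65 CPM in the deepest and 10.1 CPM in the shallowest library, and this limit and the counting intervals of single libraries cover counting error only, whereas the intervals of fold changes come from the edgeR fit and take in the spread between mice. The labelled cell type was borne out by its markers. All 7 CD8 T cell markers were detected, with a sum of 5529 to 5840 CPM in untreated and 5574 to 6084 CPM in anti-LAG-3 libraries, while Cd4 had 4 counts and Foxp3 had 2 counts over all libraries and S100a8, S100a9 and Klra8 had 0. Summed myeloid markers, of which 2 of 12 stood at 0, were 32.3 to 61.8 CPM in untreated and 26.0 to 182 CPM in anti-LAG-3 libraries. For B cell markers these ranges were 6.30 to 19.4 and 0 to 25.5 CPM, and for NK cell markers, with 1 of 4 at 0, they were 12.7 to 18.9 and 2.40 to 20.1 CPM. Of 7 tumor and stromal markers, only Pecam1, at a mean of 182 CPM, was above a mean of 5 CPM, with sums of 140 to 214 and 155 to 214 CPM. The sum of 6 CD4 T cell markers, 406 to 471 and 416 to 536 CPM, came mainly from Ctla4 at a mean of 358 CPM, which exhausted CD8 T cells also express. No marker list passed a test for a difference between the groups (exact two-sided permutation tests on log2(CPM + 1), smallest p = 0.156, adjusted p = 0.463 over the 6 lists). The largest log2 differences, anti-LAG-3 minus untreated, were -0.66 for NK cell markers and 0.62 for myeloid markers.

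No factor passed the test for a change after LAG-3 blockade. In edgeR's quasi-likelihood test over 6949 genes, 9 of the 10 factors could be tested, and 0 had an adjusted p under 0.05, as did 0% of all genes. At an unadjusted p under 0.05 there were 0 of the 9, against 3.73% of all genes, and the likelihood ratio test and DESeq2 also gave 0 by either measure. In CPM the groups overlapped for all 9, where 0.475% of all genes did not overlap. Of the 9 factors, 7 had a lower and 2 a higher estimate after anti-LAG-3, with a median log2 fold change of -0.10, beside 0.0045 over all genes tested. Single libraries moved this median. It was 0.0100 without untreated replicate 1, -0.061 without untreated replicate 3 and -0.025 without anti-LAG-3 replicate 7, each over the 8 factors that then passed the filter, and -0.18 without untreated replicate 2. For Bach2 and Bcl6 the sign turned with the measure, since the fit put them lower while their unweighted mean CPM was higher after treatment. The smallest p of the 9, 0.295, was that of Ikzf1, and the adjusted p was 0.999 for each.

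**Figure D1:**
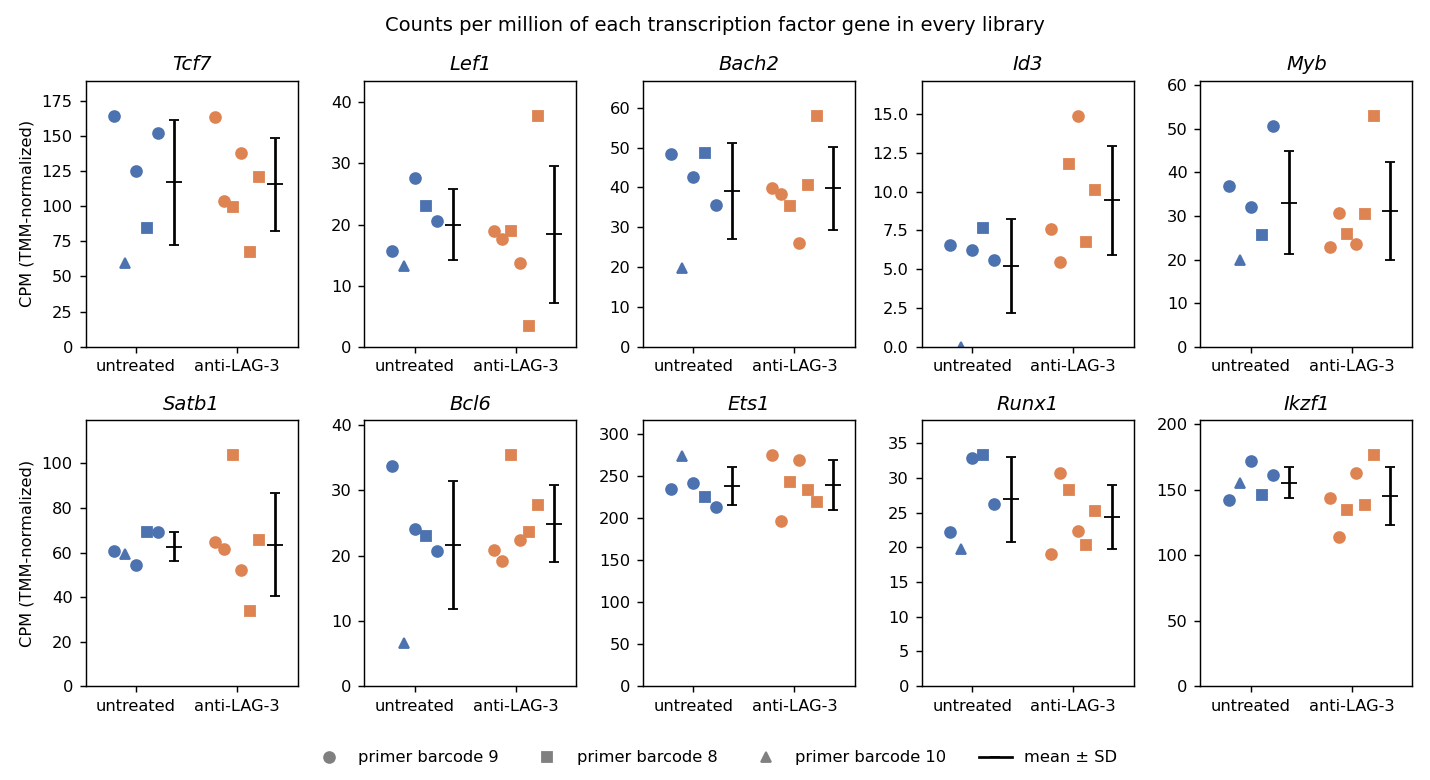
CPM (TMM-normalized) of each factor gene on its own linear axis from 0, for 5 untreated and 6 anti-LAG-3 libraries, with the primer barcode of the library (the BC number in its title) as the symbol and the mean ± SD as a bar. The groups overlap in every panel, and untreated replicate 2, the library with primer barcode 10, is the lowest untreated library for Tcf7, Lef1, Bach2, Id3, Myb, Bcl6 and Runx1.

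Tcf7, at chromosome 11 from 52252371 to 52283014 on the minus strand of GRCm38, was read 1054 times in all. The untreated libraries had 164, 59.3, 125, 84.5 and 152 CPM in replicates 1 to 5, and the anti-LAG-3 libraries had 67.6 CPM at the lowest, 112 CPM at the median and 163 CPM at the highest. Both groups therefore held mice with less than 70 CPM and mice with more than 160 CPM. The mean was 117 ± 44.4 CPM in untreated and 115 ± 33.2 CPM in treated mice, and the log2 fold change was -0.061 (standard error 0.19, 95% interval -0.44 to 0.32). On a linear scale, the interval spans 0.736-fold to 1.25-fold, and changes larger than these lay outside it.

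Lef1, at chromosome 3 from 131110471 to 131224356 on the plus strand, had few reads, 1 to 32 per library. In untreated replicates 1 to 5 it stood at 15.6, 13.2, 27.6, 23.1 and 20.6 CPM, and in anti-LAG-3 mice at 3.38 CPM at the lowest, 18.2 CPM at the median and 37.8 CPM at the highest. The anti-LAG-3 group held both the lowest library, replicate 10 with a single read, and the highest, replicate 11. Its log2 fold change was -0.17 (standard error 0.30, 95% interval -0.79 to 0.44), the widest interval of the 9.

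Myb encodes c-Myb, which is required for the self-renewal of stem-like exhausted cells, and lies at chromosome 10 from 21124935 to 21160984 on the minus strand. Untreated replicates 1 to 5 had 37.0, 19.8, 32.0, 25.6 and 50.6 CPM, while the anti-LAG-3 libraries had 22.8 CPM at the lowest, 28.2 CPM at the median and 52.9 CPM at the highest. The highest anti-LAG-3 library, replicate 11, lay above every untreated library, and the other 5 had at most 30.8 CPM. The mean was 33.0 ± 11.8 CPM without and 31.1 ± 11.2 CPM with treatment. The log2 fold change of -0.22 (standard error 0.24, 95% interval -0.70 to 0.27) was the largest of the 9 in size, but it ranged from -0.37 without anti-LAG-3 replicate 11 to -0.070 without untreated replicate 5, with an unadjusted p above 0.05 in both cases.

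Bach2, whose product competes with AP-1 factors for DNA and restrains effector genes, lies at chromosome 4 from 32238804 to 32586108 on the plus strand. It had 48.4, 19.8, 42.7, 48.7 and 35.6 CPM in untreated replicates 1 to 5, and 26.1, 39.2 and 58.0 CPM at the lowest, median and highest in anti-LAG-3 mice. Apart from untreated replicate 2, with 6 reads, the untreated libraries lay within the anti-LAG-3 range. The mean was 39.05 ± 12.0 CPM without and 39.7 ± 10.4 CPM with treatment. The log2 fold change was -0.10 (standard error 0.21, 95% interval -0.53 to 0.32).

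Bcl6, the repressor that opposes Blimp-1, lies at chromosome 16 from 23965052 to 23988852 on the minus strand. Untreated replicates 1 to 5 had 33.7, 6.59, 24.0, 23.1 and 20.6 CPM, and anti-LAG-3 libraries had 19.2 CPM at the lowest, 23.0 CPM at the median and 35.4 CPM at the highest. The medians of both groups were within 0.1 CPM of each other. The mean was 21.6 ± 9.74 CPM without and 24.9 ± 5.91 CPM with treatment. The log2 fold change was -0.060 (standard error 0.26, 95% interval -0.59 to 0.47).

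Id3, which encodes an inhibitor of E proteins and lies at chromosome 4 from 136143497 to 136145755 on the plus strand, did not pass the filter. It had 62 reads in all, 0 to 12 per library, and in no library did it reach the 17.7 CPM that the filter asks for. The untreated libraries had 6.57, 0, 6.23, 7.68 and 5.63 CPM in replicates 1 to 5, and the anti-LAG-3 libraries had 5.49, 8.84 and 14.9 CPM at the lowest, median and highest. The 3 highest libraries were all from anti-LAG-3 mice, and the other 3 of that group lay within the untreated range. In the fit on all 24024 genes with at least 1 count, its log2 fold change was 0.62 (standard error 0.48, 95% interval -0.32 to 1.55, adjusted p = 0.722 in edgeR), so that neither a rise nor the lack of one was detectable at this depth.

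Satb1, at chromosome 17 from 51736187 to 51833290 on the minus strand, varied little in the untreated group, with 60.8, 59.3, 54.3, 69.2 and 69.4 CPM in replicates 1 to 5. The anti-LAG-3 libraries reached from 33.8 CPM in replicate 10 to 104 CPM in replicate 8 around a median of 63.0 CPM, and thus on both sides of the untreated range. Both of these libraries have primer barcode 8, with 10 reads (95% counting interval 16.2 to 62.2 CPM) and 44 reads (75.4 to 139 CPM). Within primer barcode 9, Satb1 had 54.3 to 69.4 CPM in untreated and 52.1 to 64.5 CPM in anti-LAG-3 libraries. Over all libraries, the mean was 62.6 ± 6.57 CPM in untreated and 63.6 ± 23.0 CPM in anti-LAG-3 mice. The log2 fold change was 0.044 (standard error 0.18, 95% interval -0.32 to 0.41).

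The lineage factors Ets1 and Ikzf1 gave the narrowest intervals. Ets1, at chromosome 9 from 32636221 to 32757820 on the plus strand, had 235, 274, 242, 225 and 214 CPM in untreated replicates 1 to 5 and 196, 238 and 275 CPM at the lowest, median and highest in anti-LAG-3 mice. The untreated range thus lay within that of the anti-LAG-3 group. Its log2 fold change was 0.016 (standard error 0.10), with a 95% interval of 0.872-fold to 1.17-fold. Ikzf1, which encodes Ikaros at chromosome 11 from 11685003 to 11772926 on the plus strand, had 142, 155, 172, 146 and 161 CPM in untreated replicates 1 to 5. In anti-LAG-3 mice it had 114, 141 and 176 CPM at the lowest, median and highest, so that 3 of these libraries lay below every untreated one. The log2 fold change was -0.13 (standard error 0.12, 95% interval -0.37 to 0.12).

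Runx1, at chromosome 16 from 92601466 to 92826149 on the minus strand, encodes a DNA-binding subunit that pairs with CBFβ. It had 22.2, 19.8, 32.9, 33.3 and 26.3 CPM in untreated replicates 1 to 5 and 19.0, 23.8 and 30.8 CPM at the lowest, median and highest in anti-LAG-3 mice, nearly the same range. The log2 fold change was -0.13 (standard error 0.23, 95% interval -0.59 to 0.34). In edgeR's quasi-likelihood test its p was 0.627, larger than this standard error would give, so the interval may be too narrow.

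**Figure D2:**
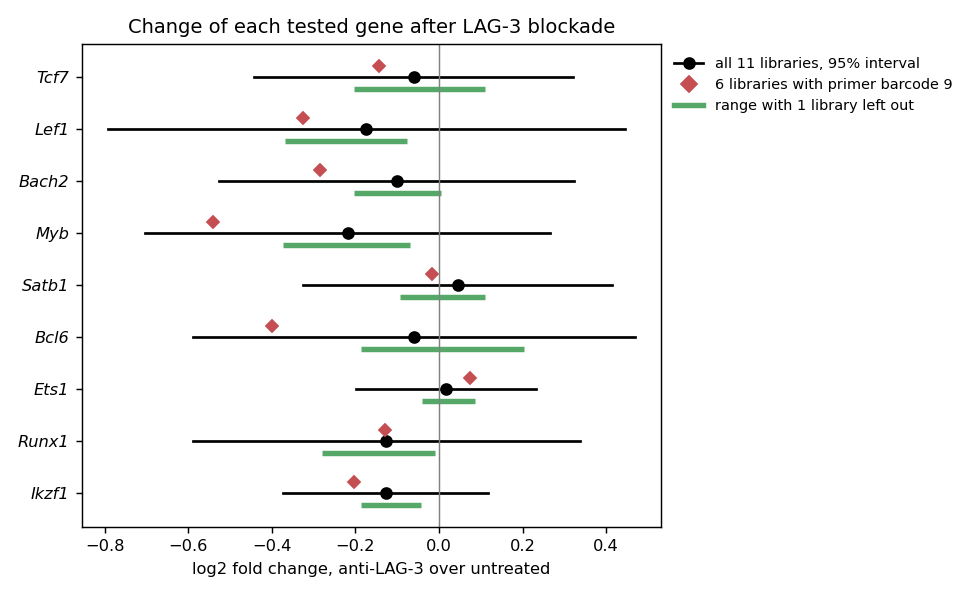
Log2 fold change of anti-LAG-3 over untreated for the 9 factors tested, with the estimate and 95% interval from all 11 libraries (black), the estimate from the 6 libraries with primer barcode 9 (red) and the range with 1 library left out (green; for Lef1 over 6 of the 11 fits, since it did not pass the filter in the others). All 9 intervals from all libraries include 0, from the narrowest for Ets1, -0.20 to 0.23, to the widest for Lef1, -0.79 to 0.44.

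Levels of different genes were compared as CPM per kilobase of the longest coding transcript. Per the methods, cDNA was made with oligo-dT and template switching, the barcoded primer binds the sequence added by the switch, and the amplified cDNA was then fragmented. Reads may therefore come from a part of the transcript only, whereas this scale assumes that they rise with its length. In CPM without length, the means over 11 libraries were 239 for Ets1, 150 for Ikzf1 and 116 for Tcf7, so the order of these 3 depends on the scale. Per kilobase, Ets1 (47.0 ± 5.04, SD, n = 11) and Tcf7 (47.0 ± 14.8) headed the order and overlapped, with Ets1 above Tcf7 in 4 of 11 libraries. Ikzf1 followed at 29.0 ± 3.52 and was below Tcf7 in 10 and above Satb1 in 11 of 11 libraries. Satb1 (10.1 ± 2.69) and Myb (8.65 ± 2.96) overlapped, with Satb1 the higher in 7 libraries. Below them stood Bcl6 at 6.63, Id3 at 5.89, Lef1 at 5.49, Bach2 at 4.44 and Runx1 at 4.35 CPM per kilobase, and among these the neighbours overlapped, with the higher of each pair above the other in 4 to 9 of 11 libraries.

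The factors differed in how far they varied beyond counting error. Counts of the same group were compared with those that depth alone gives, and chi-square divided by its 9 degrees of freedom was highest for Tcf7, at 6.76, whereas counting error alone gives about 1. It was 2.99 for Ets1, 2.17 for Ikzf1, 2.08 for Satb1, 2.00 for Lef1, 1.95 for Myb, 1.45 for Bach2 and 1.42 for Bcl6. For Id3, at 0.974, and Runx1, at 0.907, no spread beyond counting error was detected with their 62 and 219 reads. This statistic also grows with the number of reads. In CPM, the coefficient of variation was 33.7% for Tcf7, where counting gives 11.9%, and 47.6% for Lef1, where counting gives 30.5%, so Lef1 was not shown to vary less than Tcf7. The biological coefficient of variation from edgeR sets counting error apart. It was 0.193 for Tcf7, a value exceeded by 7.79% of the genes tested, and 0.183 for Lef1, exceeded by 10.1%. For Ets1, 0.104, and Ikzf1, 0.109, it was below the median of 0.120 over all genes, and for Runx1, 0.136, it was above that median.

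Within this spread, Tcf7 levels were set beside the primer barcode of the library, here taken to be the number after BC in the sample titles, since the methods give an amplification primer with a BC number. Primer barcode 9 marks 6 libraries, 3 of untreated and 3 of treated mice, which were deeper than all others and had 141 ± 23.7 CPM of Tcf7 (SD over 6). The 4 libraries with primer barcode 8, 3 of them anti-LAG-3, had 93.1 ± 22.6 CPM (SD over 4), and the single library with primer barcode 10, untreated replicate 2, had 59.3 CPM. The shallowest libraries gave the lowest values, with 18 reads (95% counting interval 35.2 to 93.8 CPM) in untreated replicate 2 and 20 reads (41.3 to 104 CPM) in anti-LAG-3 replicate 10. In a fit with group and primer barcode, Tcf7 was higher by 0.55 on the log2 scale with primer barcode 9 than with 8 (standard error 0.18, adjusted p = 0.363 in edgeR's quasi-likelihood test). Of the 9 factors, 0 passed adjustment in this comparison, beside 0.374% of all genes, and only Tcf7 had an unadjusted p under 0.05, beside 8.02% of all genes. Over all 11 libraries, Tcf7 correlated with log2 total count with r = 0.66 (permutation test, p = 0.0308, adjusted p = 0.364 over 45 relations) and rho = 0.72 (permutation test, p = 0.0160). Without the 2 libraries farthest from the median depth r was 0.80, but within primer barcode 9 it was -0.55 (n = 6, exact permutation test, p = 0.260). Some titles also share an ExT and S number across barcodes. Untreated replicates 2 and 3 and anti-LAG-3 replicate 10 share one such number and had 59.3, 125 and 67.6 CPM of Tcf7, and untreated replicates 4 and 5 share another and had 84.5 and 152 CPM. In both sets, the library with primer barcode 9 was the highest. Depth, barcode and mouse cannot be told apart here, since the deeper libraries are those with primer barcode 9. For the other 8 factors, r with depth lay between -0.32 and 0.25.

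**Figure D3:**
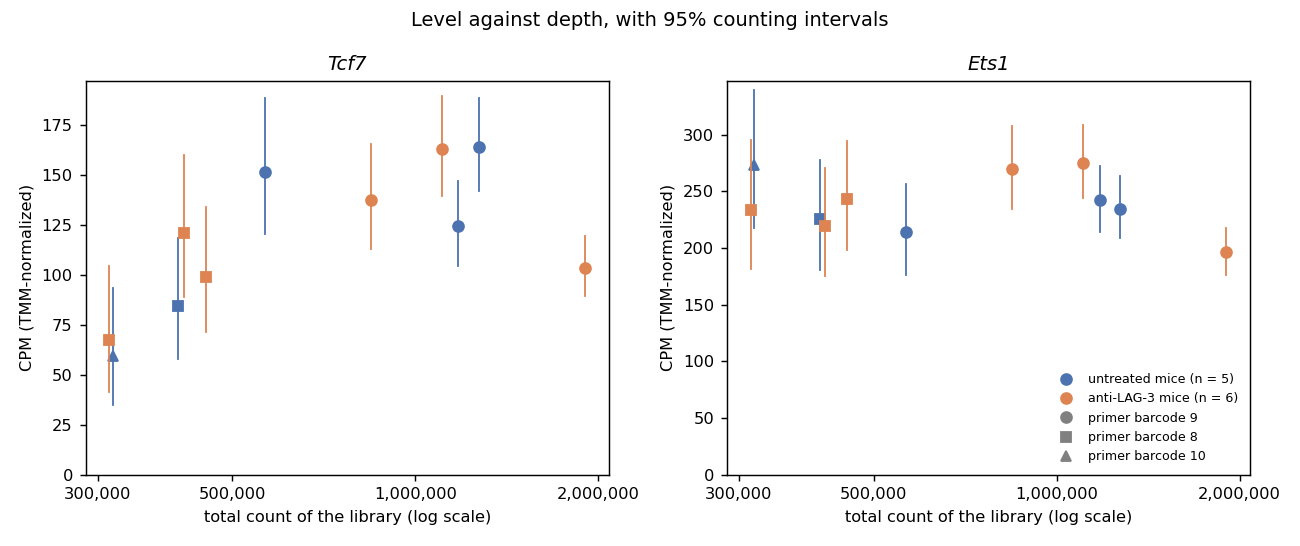
Level in CPM (linear axis from 0) against the total count of the library (log axis) for Tcf7 and Ets1, with colors for the groups, symbols for the primer barcode and bars for 95% counting intervals. Tcf7 lies at 59.3 to 121 CPM in the 5 libraries with primer barcode 8 or 10 and at 104 to 164 CPM in the 6 with primer barcode 9, whereas Ets1 has 219 to 274 and 196 to 275 CPM.

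Within primer barcode 9, with 3 mice in each group, Myb had the lowest p of the 9 factors. It had 37.0, 32.0 and 50.6 CPM in untreated replicates 1, 3 and 5, all above the 22.8, 30.8 and 23.6 CPM in anti-LAG-3 replicates 6, 7 and 9. Groups without overlap were thus found for 1 of 9 factors, beside 10.1% of all genes in these libraries. Its log2 fold change there was -0.54 (standard error 0.24, 95% interval -1.05 to -0.029, adjusted p = 0.986 in edgeR's quasi-likelihood test). The count of factors with an unadjusted p under 0.05 was thus 1 of 9, beside 4.69% of the 9071 genes tested in these libraries. With primer barcode 8 the order was not the same, since the single untreated library had 25.6 CPM and the 3 anti-LAG-3 libraries had 26.0, 30.4 and 52.9 CPM. With the barcode as a covariate over all 11 libraries, the log2 fold change of Myb was -0.33. For the other factors, the estimate within primer barcode 9 ranged from -0.40 for Bcl6 to 0.073 for Ets1, and that of Tcf7 was -0.14 (standard error 0.16).

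Whether the factors rose and fell together over the mice was examined for the 36 pairs of the 9 factors. Of these pairs 26 had a Pearson r above 0, with a median of 0.25, and 0 passed adjustment over the 45 relations, while 5 had an unadjusted p under 0.05. The highest was that of Bach2 and Bcl6, r = 0.72 (permutation test, p = 0.0204, adjusted p = 0.364) and rho = 0.51 (permutation test, p = 0.114). It rested on untreated replicate 2, the library with the fewest reads of both, since r was 0.29 without it, and 0.25 without the 2 libraries farthest from the median of Bach2. Myb and Ets1 had the lowest, r = -0.68 (permutation test, p = 0.0233, adjusted p = 0.364) and rho = -0.74 (permutation test, p = 0.0127), which stayed between -0.83 and -0.60 with any 1 library left out and was -0.67 within primer barcode 9 (n = 6, exact permutation test, p = 0.133). Without the 2 libraries farthest from the median of Myb it was -0.66. Tcf7 and Lef1 had r = 0.46 (permutation test, p = 0.156) and rho = 0.27 (permutation test, p = 0.418), and -0.26 without the 2 libraries farthest from the median of Tcf7. CPM values share their denominator and the shallow libraries, so such correlations do not come from independent points.

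**Figure D4:**
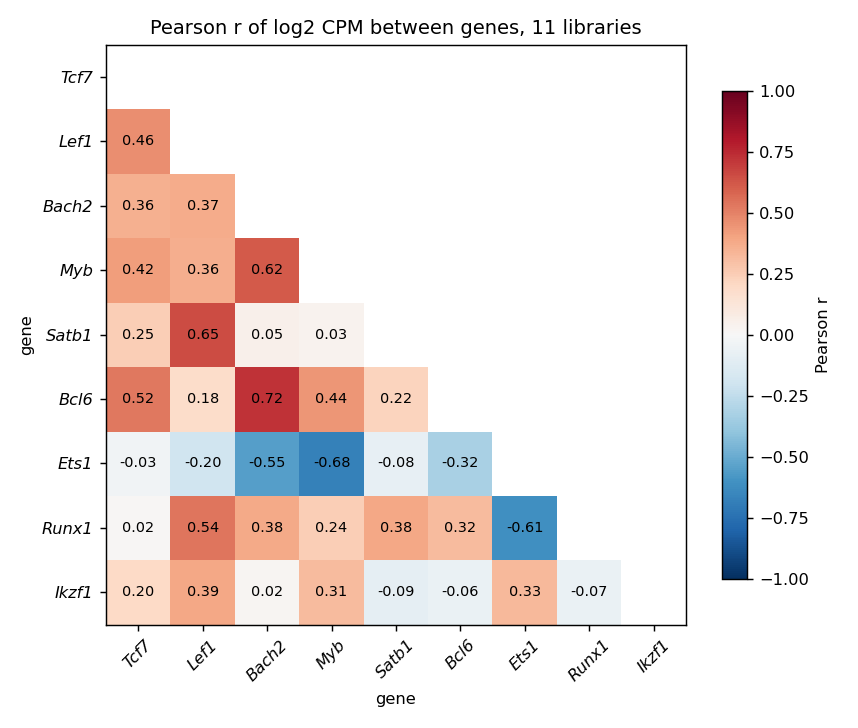
Pearson r of log2 CPM over 11 libraries for each pair of the 9 tested factors, in color and as a number. Ets1 has r below 0 with all the others except Ikzf1, down to -0.68 with Myb, and the highest value is 0.72 for Bach2 with Bcl6.

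Among the 1782 genes with a mean of at least 100 CPM, those whose log2 CPM was most like that of Tcf7 over the 11 libraries were named as a description. They were Rpl3-ps1 (r = 0.90, rho = 0.90), Cmpk1 (r = 0.89, rho = 0.82), Hspd1 (r = 0.85, rho = 0.84), Ubash3b (r = 0.82, rho = 0.85) and Rpl28 (r = 0.82, rho = 0.59). Their own r with log2 total count lay between 0.34 and 0.64. Rpl3-ps1 is a pseudogene that resembles Rpl3, so its count is uncertain.

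Of 40 partners and relatives of the factors, 27 passed the filter, 10 with a higher and 17 with a lower estimate after anti-LAG-3 and a median log2 fold change of -0.085, and 0 passed adjustment. An unadjusted p under 0.05 was found for Elf1 and Tcf3, with an adjusted p of 0.999 in edgeR for both. Elf1, an ETS family factor, stood at 219 ± 23.7 CPM without and 266 ± 26.3 CPM with treatment, or 0.25 on the log2 scale (standard error 0.10). Tcf3, an E protein that ID proteins bind, stood at 55.6 ± 12.1 CPM without and 42.8 ± 15.8 CPM with treatment, or -0.54 (standard error 0.25). Ep300, a coactivator, had the next smallest p, with 26.9 ± 3.71 CPM without and 20.5 ± 5.97 CPM with treatment, or -0.44 (standard error 0.24). The genes of the list with the highest levels were Id2, the ID family member linked to effector cells, with a mean of 254 CPM and a log2 fold change of -0.036, Elf1, and Hdac1, a histone deacetylase, with 164 CPM and 0.055.

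Of 22 receptors and regulators of stem-like and quiescent T cells, 19 passed the filter, 13 with a higher and 6 with a lower estimate and a median log2 fold change of 0.033, and 0 passed adjustment. Only Dapl1 had an unadjusted p under 0.05, with 113 ± 22.9 CPM without and 84.8 ± 30.7 CPM with treatment, or -0.39 on the log2 scale (standard error 0.18, adjusted p = 0.999 in edgeR). Slamf6, which encodes the sorting marker Ly108, had 111 ± 10.6 and 97.5 ± 14.2 CPM, or -0.17, and Foxp1, a factor of quiescence, had 70.9 ± 16.7 and 83.6 ± 10.7 CPM, or 0.19. The highest levels were those of the chemokine receptor gene Ccr7 (2145 CPM, log2 fold change -0.010), the chemokine gene Xcl1 (1141 CPM, 0.017) and the lymphotoxin gene Ltb (410 CPM, 0.10).

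Among 16 factors of exhaustion and effector differentiation, 14 passed the filter, 8 with a higher and 6 with a lower estimate. Their median log2 fold change was 0.0051, and 0 passed adjustment. Tox, which sustains exhausted T cells, stood at 135 ± 27.7 CPM without and 173 ± 25.0 CPM with treatment, or 0.32 on the log2 scale (standard error 0.13, adjusted p = 0.999 in edgeR). Stat4, which transmits IL-12 signals, had 258 ± 28.2 and 218 ± 19.4 CPM, or -0.24 (standard error 0.10), and these were the list's 2 genes with an unadjusted p under 0.05. Irf8, a factor of effector differentiation, had the next smallest p and -0.18. Bhlhe40 (1173 CPM, 0.024), Nr4a2 (577 CPM, -0.097) and Irf8 (398 CPM) had the highest levels. Over these 3 lists, 2 of 27, 1 of 19 and 2 of 14 tested genes had an unadjusted p under 0.05, beside 3.73% of all genes, and as for the 9 factors none passed adjustment in edgeR.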

How the data were processed

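Bulk RNA-seq of sorted cells from 5 untreated and 6 anti-LAG-3 mice was analysed. Per the study's methods, the authors trimmed reads with Cutadapt, mapped them to GRCm38 reference RNA with Bowtie2 and deposited unnormalized counts for each gene symbol. How reads that fit several genes, or their strand, were treated is not given in the sources used here. Columns were matched to samples by title, groups came from the treatment label, and replicates carry the library numbers 1 to 11 of the labels. These factors, gene lists and tests were chosen with earlier results of these data known.

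Low genes were removed by filterByExpr (17.7 CPM, or 10 counts at the median depth, in 5 libraries or more, with 15 counts or more in total), and the rest were normalized by TMM and tested with edgeR 4.0.16 (R 4.3.3) by its quasi-likelihood test, with Benjamini-Hochberg adjustment over all genes at 0.05. The study's own likelihood ratio test and DESeq2 1.42.0 were alternatives. Standard errors were derived from the log2 fold change and its F statistic. Correlations used log2 CPM with a prior count of 2 and 100000 permutations, and marker sums used total counts. Positions, overlaps and sequences come from GENCODE M21 of GRCm38, another release than the authors' annotation. The main quasi-likelihood fit was run on simulated counts as well, but the alternative fits were not.

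Named beyond the 10 factors were, per list, the 3 genes with the smallest p and the 3 with the highest level, and the 5 most like Tcf7. Other choices made after values were seen are the comparison of primer barcodes, the block on title numbers and the fit for Id3.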

Additional observations from a re-analysis of the deposited data

Results flagged for a closer look

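Dixon's criterion for a library far from its group was applied to 34 sets of values (the 10 factors, total counts and 6 marker lists in each group). It was met in 3 of them, where chance gives about 1 in 20 sets, or 1.7 here. Id3 had 0 reads in untreated replicate 2, against 5.63 to 7.68 CPM in the other untreated libraries, and 3 counts there would be 9.89 CPM, while the 95% counting interval of its 0 reads ends at 12.2 CPM. Myb stood at 52.9 CPM in anti-LAG-3 replicate 11, against 22.8 to 30.8 CPM in the others of its group. In the same library, the summed B cell markers stood at 0 CPM, against 9.94 to 25.5 CPM in the others.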

How the results depend on the processing

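The number of factors past adjustment stayed at 0 under 8 alternatives (likelihood ratio test, DESeq2, robust fit, RLE normalization, total counts, no filter, primer barcode as covariate, primer barcode 9 only) and with any 1 library left out, and so did the number of list genes past adjustment, of factors whose groups did not overlap (under total counts and with 1 library left out) and of correlations past adjustment (with Spearman's rho, values centred within groups, a prior count of 0.5, or primer barcode 9 only). With primer barcode 9 only, the exact test on 6 libraries is too coarse for a single correlation to pass adjustment over 45 relations. The number of factors at an unadjusted p under 0.05 became 1 (Myb) with primer barcode 9 only and stayed at 0 under the other 7 and with any 1 library left out. The median log2 fold change of the factors, -0.10, ranged from -0.20 to -0.070 over the 8 alternatives and from -0.18 to 0.0100 with 1 library left out. The value of -0.070 came from the fit without the filter and is over 10 factors, Id3 included. Signs turned for Bcl6 with DESeq2 (0.0041) and for Satb1 with the primer barcode as covariate (-0.0024) or primer barcode 9 only (-0.016). With 1 library left out, the log2 fold change ranged from -0.20 to 0.11 for Tcf7, -0.20 to 0.0060 for Bach2, -0.092 to 0.11 for Satb1, -0.19 to 0.20 for Bcl6 and -0.041 to 0.085 for Ets1, while it kept its sign for Lef1 (-0.37 to -0.076), Myb (-0.37 to -0.070), Runx1 (-0.28 to -0.010) and Ikzf1 (-0.19 to -0.044) wherever they were tested. Lef1 did not pass the filter in 5 of these 11 fits, those without untreated replicate 1 or 3 or anti-LAG-3 replicate 6, 7 or 9. The causes were not tested. Over all genes, 3 passed adjustment without the filter and 2 without anti-LAG-3 replicate 7, against 0 under the others of these settings, and 1095 of 24024 genes had an unadjusted p under 0.05 without the filter, 163 with DESeq2, 425 of 9071 with primer barcode 9 only and 259 of 6949 as reported. The groups share no replicate number that could pair their libraries. As an alternative chosen after seeing the data, the ExT number of the titles was used as a block, which compares anti-LAG-3 replicate 10 with untreated replicates 2 and 3 and leaves 2 residual degrees of freedom. It called 0 factors and 1 list gene (Dapl1, lower) after adjustment, gave 1 factor (Lef1, -2.74, on 1 read in that library) an unadjusted p under 0.05 and a median of -0.26, and turned the sign of Bach2 (0.16), Myb (0.086), Satb1 (-0.72), Bcl6 (0.28) and Ets1 (-0.12). Over all genes it called 16, with 485 at an unadjusted p under 0.05. Depth limits Id3, Lef1, Bcl6 and Runx1 the most, with 62 to 219 reads each over all libraries.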
